A study of Mus musculus with 23 samples.

Results

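The immediate early AP-1 and Egr1 genes were followed across mammary tumors in which IL-38, an inhibitory cytokine of the IL-1 family, was neutralized or deleted. The group holds Fos, Fosb, Fosl1, Jun, Junb, Jund, Egr1, Atf3, Ier2 and Dusp1. They were chosen by name as genes that also respond when tissue is dissociated, most of which cells induce first after a growth or stress signal. All 10 were found among the 47643 gene identifiers of the deposited tables. Tumors came from female mice of C57BL/6 background that carry the polyoma virus middle T oncoprotein (PyMT), a transgene that drives mammary carcinoma, and all 23 libraries therefore share that transgene. In the neutralization experiment, PyMT WT mice received IgG (5 libraries, human IgG1 isotype control) or anti-IL-38 (6 libraries, antibody e04), starting once the first tumor had reached a set size. In the γδTCR experiment, which started at a fixed age, PyMT WT mice received IgG (WT_IgG, 4 libraries), and PyMT IL-38 KO mice received IgG (KO_IgG, 4 libraries) or an antibody against the γδ T-cell receptor (KO_γδTCR, 4 libraries, antibody UC7-13D5), with polyclonal Armenian hamster IgG as control. Treatment was given once a week for 5 weeks in every group. The IL-38 KO strain was on C57BL/6N before it was crossed to the PyMT strain, the promoter of the transgene is not given in the sources used here, and the labels give no ages. The study's methods state that tumors were dissociated before RNA isolation, whereas the labels name only the isolation with TRIzol.

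Fos and Jun proteins form the AP-1 dimers, which bind DNA through a basic leucine zipper and switch on genes of proliferation, invasion and inflammation. Most of their genes, like Egr1, are kept nearly silent at rest. They are transcribed within minutes after MAP kinase signals reach serum response factor and CREB at their promoters. Unstable mRNA and feedback phosphatases such as Dusp1 then shut them off again, whereas Jund is expressed steadily. In mammary carcinoma AP-1 is known as an effector of Ras and MAP kinase signaling, which middle T also engages. The same genes are known to be induced in tissue kept warm during enzymatic digestion.

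Promoters of 7 members were used from RefSeq (build GRCm38.p6), for Fos, Fosb, Jun, Junb, Jund, Atf3 and Dusp1. Those of Fosl1, Egr1 and Ier2 were left out and not searched, so the matches below say nothing of them. The 250 bases before the annotated start site are shown for Fosb and Jun, the members without overlap between groups on γδTCR blockade, for Fos, the closest relative of Fosb, and for Dusp1, the phosphatase that ends the signal. Sequences run 5′ to 3′ along the gene, and capitals mark TGACG or its complement CGTCA, the core of the cAMP response element bound by CREB and ATF proteins.
Fosb, chr7:19310046-19310295, minus strand: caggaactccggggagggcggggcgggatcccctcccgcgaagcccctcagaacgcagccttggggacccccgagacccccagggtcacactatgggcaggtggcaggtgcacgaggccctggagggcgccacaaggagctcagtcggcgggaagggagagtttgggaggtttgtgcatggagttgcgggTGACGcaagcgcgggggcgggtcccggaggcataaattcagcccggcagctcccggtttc
Fos, chr12:85473640-85473889, plus strand: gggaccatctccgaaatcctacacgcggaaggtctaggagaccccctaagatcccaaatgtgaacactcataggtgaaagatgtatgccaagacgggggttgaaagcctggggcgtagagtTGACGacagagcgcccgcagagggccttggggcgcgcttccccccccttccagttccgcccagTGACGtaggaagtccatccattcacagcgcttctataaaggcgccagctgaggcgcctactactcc
Jun, chr4:95052223-95052472, minus strand: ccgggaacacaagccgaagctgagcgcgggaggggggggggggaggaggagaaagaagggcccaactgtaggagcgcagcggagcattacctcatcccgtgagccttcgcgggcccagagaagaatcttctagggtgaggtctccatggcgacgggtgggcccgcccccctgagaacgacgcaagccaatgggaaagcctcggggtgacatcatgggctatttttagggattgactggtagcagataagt
Dusp1, chr17:26508473-26508722, minus strand: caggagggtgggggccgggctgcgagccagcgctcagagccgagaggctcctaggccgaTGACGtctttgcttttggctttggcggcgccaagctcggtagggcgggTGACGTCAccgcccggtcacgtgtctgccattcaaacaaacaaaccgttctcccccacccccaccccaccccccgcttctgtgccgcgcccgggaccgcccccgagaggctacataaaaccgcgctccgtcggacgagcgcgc
The TGACG core was looked for after these sequences had been seen, on both strands, and 17.8% of 32851 promoter windows of this length hold it. It stood 60 bases before the start in Fosb, 129 and 66 bases before it in Fos, 106 bases before it in Junb and 7 bases before it in Atf3, and was not matched in Jun or Jund. Dusp1 held it 3 times, and 2 of the 3 matches overlap in the full palindrome TGACGTCA, 143 to 136 bases before the start, which 1.55% of windows hold. The GC box GGGCGG was matched in Fos, Fosb, Jun, Atf3 and Dusp1 and in 32.7% of windows. The AP-1 site TGANTCA (6.75% of windows), the EGR site GCGTGGGCG (0.536%) and the CArG box of serum response factor (1.47%) had no match in any of the 7 windows. These matches describe exact letters within 250 bases, so that a variant such as TGACATCA in the Jun window was not counted. No binding was measured in these tumors.

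Libraries held 6273049 to 15879164 reads counted on genes. Il1f10, which encodes IL-38, had 0 reads in each of the 23 libraries, so the knockout labels could not be checked by their target. A group of 5 libraries stood apart from the other 18: the 4 KO_γδTCR libraries and KO_IgG replicate 4. Processed pseudogenes took 1.31% to 1.98% of the reads in these 5 and 0.0943% to 0.191% in the 18. They were also shallower, with 6273049 to 8794202 against 10138353 to 15879164 reads. Luminal epithelial markers were present in every library, at a summed 1339 to 3603 CPM, the reads of a gene scaled by all reads counted in the library. The column of KO_γδTCR replicate 3, the shallowest library, carries "rep" after its number, which no source explains, and was matched to its sample by that number. Main results on γδTCR blockade are given with and without KO_IgG replicate 4.

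Most members were readily measured, and Fosb and Fosl1 were the scarce ones. Levels are given in CPM and are compared between groups for 1 gene and not between genes. Fosb encodes a Fos protein whose induction is steep and brief. It stood at 1.63, 2.02, 1.43, 3.21 and 1.27 CPM in the IgG libraries, and its median with anti-IL-38 was 2.69 CPM (range 0.888 to 5.17). In the γδTCR experiment it reached 5.39, 15.5, 10.1 and 12.9 CPM in WT_IgG, 3.17, 2.85, 5.79 and 1.86 CPM in KO_IgG, and 38.6, 35.2, 20.1 and 6.94 CPM in KO_γδTCR. All 4 KO_γδTCR libraries lay above all KO_IgG libraries. In CPM, all 4 WT_IgG libraries lay above all IgG and anti-IL-38 libraries, while WT_IgG and KO_IgG overlapped through 1 library each. In reads divided by the authors' size factor, anti-IL-38 replicate 5 (64.1) lay above WT_IgG replicate 1 (61.7), so WT_IgG and anti-IL-38 overlapped on that scale.

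Fos, the founding member of the family, varied less. It measured 41.1, 35.7, 28.0, 37.1 and 21.5 CPM in IgG, a median of 36.3 CPM with anti-IL-38 (range 22.1 to 79.0), and 48.7, 65.3, 94.7 and 73.4 CPM in WT_IgG. The KO_IgG libraries had 39.1, 61.9, 99.6 and 41.2 CPM and the KO_γδTCR libraries 131, 122, 69.8 and 32.9 CPM. The IgG libraries were all below WT_IgG, and the KO_γδTCR libraries held both the highest Fos of all 23 libraries and 1 value below every KO_IgG library.

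Fosl1 encodes Fra-1, a Fos relative that is prominent in invasive tumor cells. It was at 0 to 0.699 CPM in 18 libraries, that is at most 9 reads, and 6 of them had 0 reads, which allows at most 3 counts, or 0.234 to 0.296 CPM in those 6 libraries. The 5 libraries that stood apart had 1.64 to 5.80 CPM, with 5.74, 1.64, 4.30 and 2.96 CPM in KO_γδTCR and 5.80 CPM in KO_IgG replicate 4. The other KO_IgG libraries had 0, 0.386 and 0.126 CPM, so that Fosl1 separated these 5 libraries from the 18 and did not separate KO_γδTCR from KO_IgG.

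Jun, the main dimer partner of Fos, was measured at 154, 121, 161, 100.2 and 106 CPM in IgG, a median of 138 CPM with anti-IL-38 (range 93.5 to 168) and 180, 159, 203 and 171 CPM in WT_IgG. It was 147, 131, 156 and 192 CPM in KO_IgG and 277, 285, 265 and 208 CPM in KO_γδTCR. Every KO_γδTCR library was above every library of the other 4 groups for Jun. Junb, which competes with Jun for partners, spanned 74.4 to 184 CPM over all libraries, and its group means lay between 97.1 ± 15.3 CPM in IgG (SD, n = 5) and 136 ± 41.7 CPM in KO_γδTCR (SD, n = 4). Jund, the steadily expressed Jun protein, had its highest mean in IgG, at 245 ± 33.4 CPM (SD, n = 5), and its lowest in KO_IgG, at 191 ± 29.9 CPM (SD, n = 4).

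Egr1 encodes a zinc finger factor that is induced beside Fos. Its libraries ranged from 61.3 to 83.4 CPM in IgG, from 97.9 to 134 CPM in WT_IgG, from 70.8 to 135 CPM in KO_IgG and from 41.9 to 138 CPM with anti-IL-38 (median 55.4), and KO_γδTCR had 204, 197, 89.0 and 89.7 CPM. Atf3, a stress-induced bZIP repressor, was highest on average in IgG, at 126 ± 28.2 CPM (SD, n = 5), and lowest in KO_IgG, at 80.9 ± 16.9 CPM (SD, n = 4), with 129, 107, 134 and 91.4 CPM in KO_γδTCR. Ier2, an early response gene for a nuclear protein, was between 14.2 and 35.7 CPM in all libraries. Dusp1, which dephosphorylates p38, JNK and ERK, ran from 15.9 CPM in IgG replicate 5 to 115 CPM in KO_γδTCR replicate 1.

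**Figure D1:**
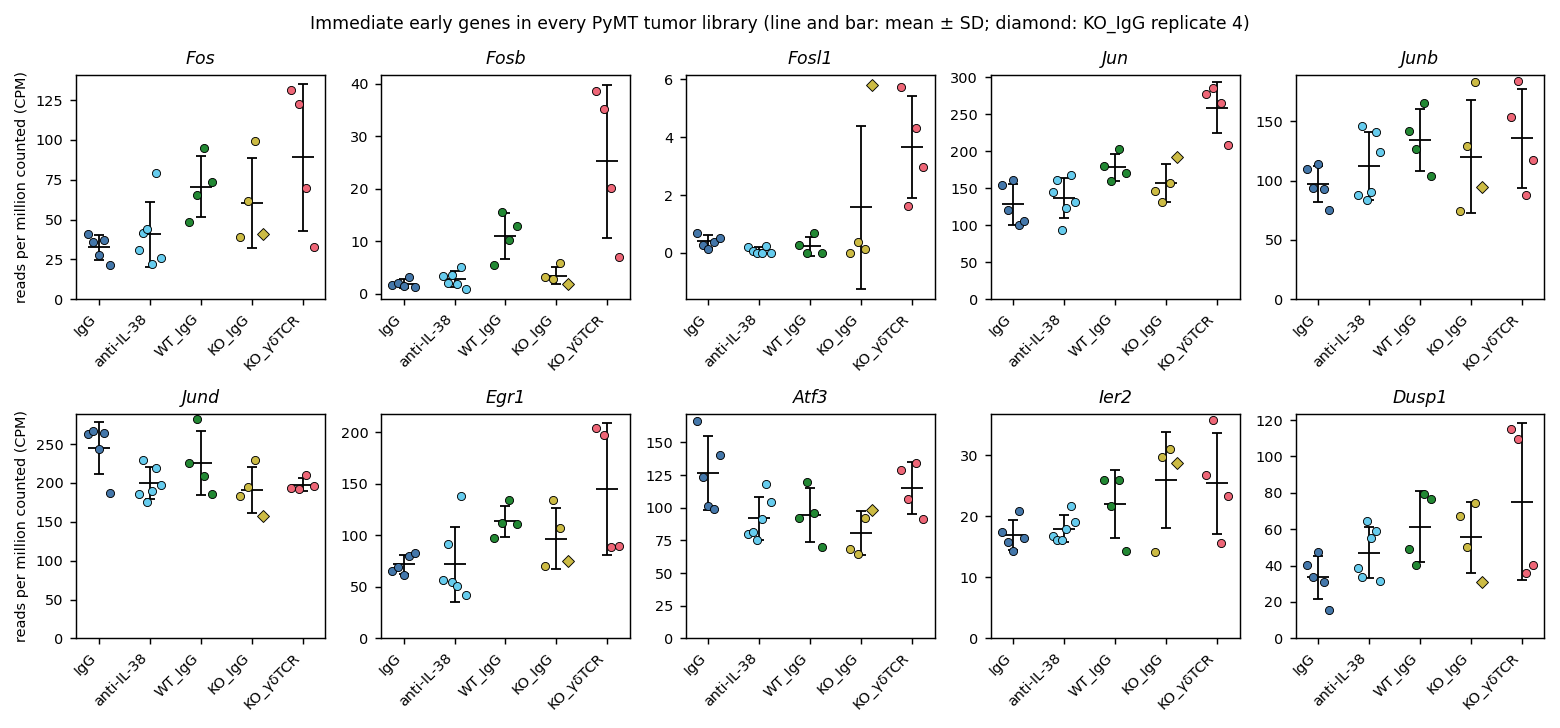
Level of each member (vertical axis, CPM, linear) in every library by group, with points for libraries and a line and bar for the mean ± SD. Jun is between 208 and 285 CPM in the 4 KO_γδTCR libraries and at most 203 CPM elsewhere, and the diamond marks KO_IgG replicate 4, whose Fosl1 of 5.80 CPM sits with the KO_γδTCR libraries.

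In the order of group means, KO_γδTCR was first for 7 of the members (Fos, Fosb, Fosl1, Jun, Junb, Egr1 and Dusp1), KO_IgG for Ier2 and IgG for Jund and Atf3. Most neighbors in these orders differed by less than the larger SD of the pair. The exceptions were the steps from KO_γδTCR to WT_IgG for Jun (80.4 CPM, larger SD 34.7), from WT_IgG to KO_IgG for Fosb (7.57 CPM, larger SD 4.33) and from KO_γδTCR to WT_IgG for Atf3 (21.2 CPM, larger SD 20.5). Only the step for Jun left no overlap between the neighboring groups among the 40 steps of the 10 members. In tumor RNA, fewer cells that express a gene and less RNA per cell cannot be told apart.

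**Figure D2:**
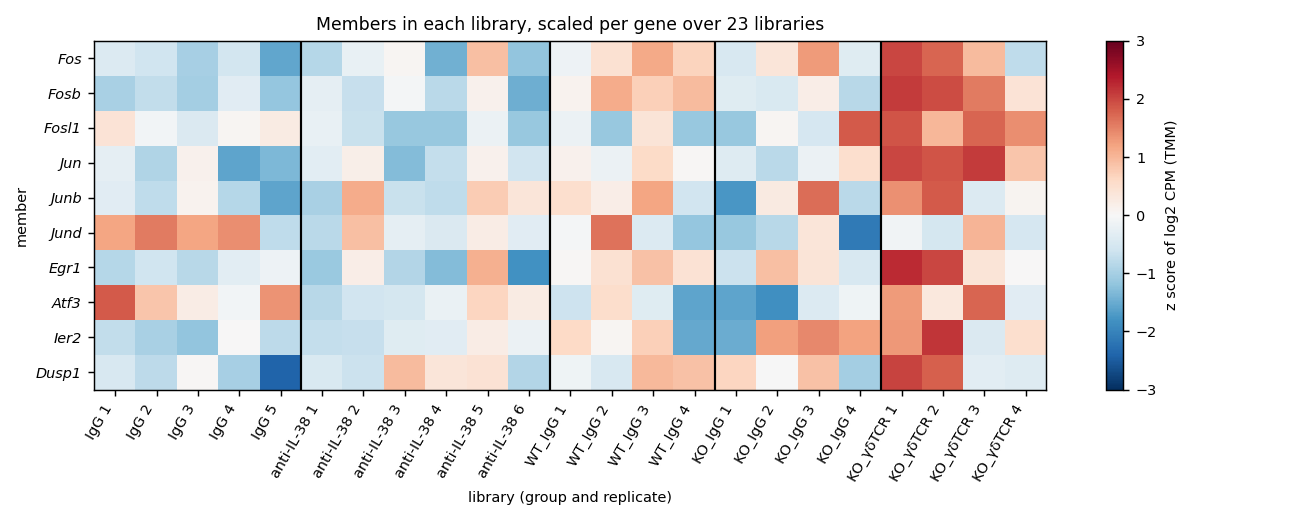
Each member (rows) in each library (columns), as the z score of its log2 CPM over the 23 libraries, with groups divided by lines. KO_γδTCR replicates 1 and 2 are above the mean of a member for all but Jund, and replicates 3 and 4 for fewer members.

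The first question was whether inhibition of IL-38 by either route changed these genes. No member passed the test with IL-38 inhibited (anti-IL-38 and KO_IgG, 10 libraries) against the controls (IgG and WT_IgG, 9 libraries). Of 10 members tested with limma on log2(normalized count + 1), 0 passed an adjusted p of 0.05, as did 0 of 16352 genes (0.0%). At an unadjusted p under 0.05 there were 0 members and 1725 genes (10.5%), and DESeq2 called 0 members and 70 genes (0.428%), while edgeR called 0 members and 1 gene (0.00612%). These fits held no term for the experiment. With the experiment as a term in limma, 0 members and 1 gene (0.00612%) passed. In that fit 2 members and 2415 genes (14.8%) had an unadjusted p under 0.05. Fos differed by less than its error, at 606 ± 290 normalized counts (reads divided by the authors' size factor) with IL-38 inhibited (SD, n = 10) and 595 ± 266 in the controls (SD, n = 9). The log2 fold change was 0.01 ± 0.27 (SE, adjusted p = 0.991).

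Fosb had the largest difference in that comparison, −0.48 ± 0.45 on the log2 scale (SE, adjusted p = 0.722), and its 2 control groups were far apart. Jund had −0.22 ± 0.11 (SE, adjusted p = 0.474), with all 10 inhibited libraries below the median of the controls and an exact permutation p of 0.0464 (two-sided). That median (3172 normalized counts) was near the IgG median (3201), and the WT_IgG median was 2514. The pooled permutation did not keep the experiments apart. Between KO_IgG and WT_IgG alone, the exact permutation p of Jund was 0.257. Atf3 had −0.29 ± 0.15 (SE, adjusted p = 0.503) and an exact permutation p of 0.0904. Single members were tested in this way 50 times over 5 comparisons, and these permutation p-values are unadjusted. The other members lay between −0.46 (Fosl1) and 0.25 (Dusp1).

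No member passed the test with antibody against IL-38 (6 libraries against 5 with IgG). Of 9 members tested, 0 passed the adjusted threshold, as did 0 of 16002 genes (0.0%), and 1 member and 1682 genes (10.5%) had an unadjusted p under 0.05. DESeq2 called 0 members and 75 genes (0.47%), and edgeR called 0 members and 0 genes (0.0%). The member was Atf3, at 1194 ± 178 normalized counts with antibody (SD, n = 6) and 1590 ± 331 with IgG (SD, n = 5). Its log2 fold change was −0.40 ± 0.15 (SE, adjusted p = 0.425, exact permutation p = 0.0281). All 6 antibody libraries were below the IgG median, and 4 were below every IgG library. Neutrophil markers had 4 of 4 estimates below 0 in the same comparison (median −0.25, 0 passing with limma and 1 with DESeq2), with a sum of 22.02 to 55.2 CPM with antibody and 47.1 to 166 CPM with IgG. Luminal and T cell markers had 6 of 6 and fibroblast markers 5 of 5 estimates above 0 (medians 0.66, 0.87 and 0.63, 0 passing), and the part of these markers in the level of Atf3 was not tested. Jund had −0.24 ± 0.11 (SE, adjusted p = 0.478, exact permutation p = 0.0411), and Dusp1 had 0.57 ± 0.28 (SE, adjusted p = 0.482, exact permutation p = 0.11). On log2 CPM with TMM scaling the exact permutation p of Jund was 0.0649. Fos and Fosb had 0.27 ± 0.28 and 0.47 ± 0.42 (SE).

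Fosl1 was below the filter there. It had 9, 4, 2, 5 and 7 reads in IgG and 3, 1, 0, 0, 3 and 0 reads with antibody, and its exact permutation p was 0.0173. All 6 antibody libraries were at or under 3 counts, the limit that a count of 0 allows.

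Knockout of IL-38 was compared within the γδTCR experiment, 4 KO_IgG against 4 WT_IgG libraries. Fosb was lower in the knockout, at 40.7 ± 20.2 against 129 ± 53.2 normalized counts (SD, n = 4 each), but did not pass the test (log2 fold change −1.65 ± 0.40, SE, adjusted p = 0.210 with limma). Of the 4 KO_IgG libraries, all lay below the WT_IgG median and 3 lay below every WT_IgG library, with an exact permutation p of 0.0571 where 0.0286 is the smallest that 4 against 4 libraries allow. DESeq2 called it (−1.65 ± 0.41, adjusted p = 0.0107), among 298 genes it called (1.84%), and edgeR did not (adjusted p = 0.254, 0 genes, 0.0%). Without KO_IgG replicate 4 the difference was −1.41 ± 0.38 (SE, adjusted p = 0.154).

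No other member had an unadjusted p under 0.05. With limma 0 of 10 members passed against 1 of 16563 genes (0.00604%), and 1 member and 2010 genes (12.1%) had an unadjusted p under 0.05. Fos had −0.26 ± 0.29, Egr1 −0.25 ± 0.20, Jund −0.21 ± 0.17 and Jun −0.17 ± 0.15 (SE), and Ier2 had 0.23 ± 0.28 (SE). Estimates were below 0 for 8 members, with a median of −0.19 against 0.01 over all genes tested. None of the 10 had groups without overlap, against 7.06% of genes. The 4 adipocyte markers had estimates below 0 in the same comparison (median −1.13), with a sum of 8.82 to 53.1 CPM in KO_IgG and 32.6 to 76.1 CPM in WT_IgG, and macrophage markers had 5 of 5 below 0 (median −0.47), with 559 to 1423 against 1259 to 1664 CPM. Basal markers had 4 of 5 below 0 (median −0.29). None of these markers passed, and their part in the level of Fosb was not tested.

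The effects of antibody and knockout were compared by an interaction term over 19 libraries. It was −2.12 ± 0.62 for Fosb on the log2 scale (SE, unadjusted p = 0.00286, adjusted p = 0.525), that is the knockout minus WT difference of −1.65 less the antibody difference of 0.47. No member passed, against 1 of 16352 genes (0.00612%), and Fosb was the only member of 10 with an unadjusted p under 0.05, against 7.67% of genes. DESeq2 gave Fosb an adjusted p of 0.0802.

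Blockade of the γδTCR in IL-38 KO tumors gave the largest estimates for Fosb and Jun of the 5 comparisons. Fosb averaged 261 ± 148 normalized counts in KO_γδTCR and 31.2 ± 15.6 in KO_IgG (SD, n = 4 each), and Jun averaged 2679 ± 451 against 1434 ± 286 (SD, n = 4 each). The log2 fold changes were 2.86 ± 0.54 for Fosb and 0.90 ± 0.18 for Jun (SE), each with an adjusted p of 0.0657, just outside the threshold. Both had no overlap between groups and an exact permutation p of 0.0286, the smallest the design allows. Non-overlapping groups with higher values after blockade were found for 2 of 10 members and 4.57% of 16481 genes.

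With limma 0 members and 0 genes (0.0%) passed, and 4 members against 3570 genes (21.7%) had an unadjusted p under 0.05. DESeq2 called 2 members, Fosb (adjusted p = 1.91e-06) and Jun (adjusted p = 0.000746), among 1030 genes (6.32%), and edgeR called 0 members and 0 genes (0.0%), with an adjusted p of 0.0911 for each of them. Without KO_IgG replicate 4, limma called 2357 of 16480 genes in either direction (14.3%), 1557 higher and 800 lower. It called 4 members, all higher. They were Fosb (2.64 ± 0.55, adjusted p = 0.00692), Fosl1 (4.05 ± 0.63, adjusted p = 0.0011), Jun (1.03 ± 0.17, adjusted p = 0.00164) and Atf3 (0.82 ± 0.21, adjusted p = 0.0259), with log2 fold changes ± SE. With that replicate left out, processed pseudogenes took 0.167% to 0.191% of reads in KO_IgG and 1.31% to 1.98% in KO_γδTCR. In that fit the blockade and this split of libraries cannot be told apart. Atf3 was at 98.6 CPM in KO_IgG replicate 4, inside its KO_γδTCR range of 91.4 to 134 CPM. The other KO_IgG libraries had 64.8 to 92.0 CPM of Atf3. One fit of all 23 libraries, with 1 estimate of the spread, also called Fosb, Fosl1, Jun and Atf3 higher. It called 2246 genes in either direction (13.6%), 1147 higher and 1099 lower. Without KO_γδTCR replicate 3, Fosb had 2.84 ± 0.62 and Jun 0.84 ± 0.20 (SE, adjusted p = 0.153 for each).

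The other members gave smaller differences. Atf3 had 0.70 ± 0.22 with all libraries (SE, adjusted p = 0.0977), and 3 of 4 KO_γδTCR libraries were above every KO_IgG library. Fosl1 had 2.87 ± 1.07 (SE, adjusted p = 0.149), and this value was 4.05 without KO_IgG replicate 4. Egr1 had 0.69 ± 0.32 (SE, adjusted p = 0.238) and Fos 0.65 ± 0.45 (SE, adjusted p = 0.451), and for both of them the KO_γδTCR libraries were widely spread. Dusp1 had 0.48 ± 0.41, Junb 0.38 ± 0.29, Jund 0.24 ± 0.15 and Ier2 0.15 ± 0.30 (SE). Estimates were above 0 for all 10 members, with a median of 0.67 against 0.02 over all genes tested. Without KO_IgG replicate 4, the median of the members was 0.56 and all 10 estimates were again above 0. Without KO_γδTCR replicate 1 the median was 0.44, and without KO_IgG replicate 1 or KO_γδTCR replicate 2 the estimate for Ier2 was below 0 and the other 9 were above it.

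The blockade went with other features of the libraries. Summed macrophage markers (5 of 5 tested) were at 463 to 699 CPM in KO_γδTCR and at 559 to 1423 CPM in KO_IgG, where replicate 4 had the lowest value, and 4 of the 5 markers had estimates below 0. Summed neutrophil markers were at 7.49 to 34.9 CPM in KO_γδTCR and 25.0 to 41.6 CPM in KO_IgG, and heat shock genes of dissociation at 4329 to 5998 and 4817 to 5732 CPM. The part of these features, of depth and of the pseudogene reads in the levels of Fosb and Jun was not tested, and the 4 KO_γδTCR libraries share high pseudogene reads and low depth with KO_IgG replicate 4. That library had the lowest Fosb of its group (1.86 CPM), while its Jun was the highest of its group (192 CPM) and below every KO_γδTCR library. The KO_IgG libraries served both as the knockout group and as the control of the blockade, and the estimates of these comparisons are not independent.

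**Figure D3:**
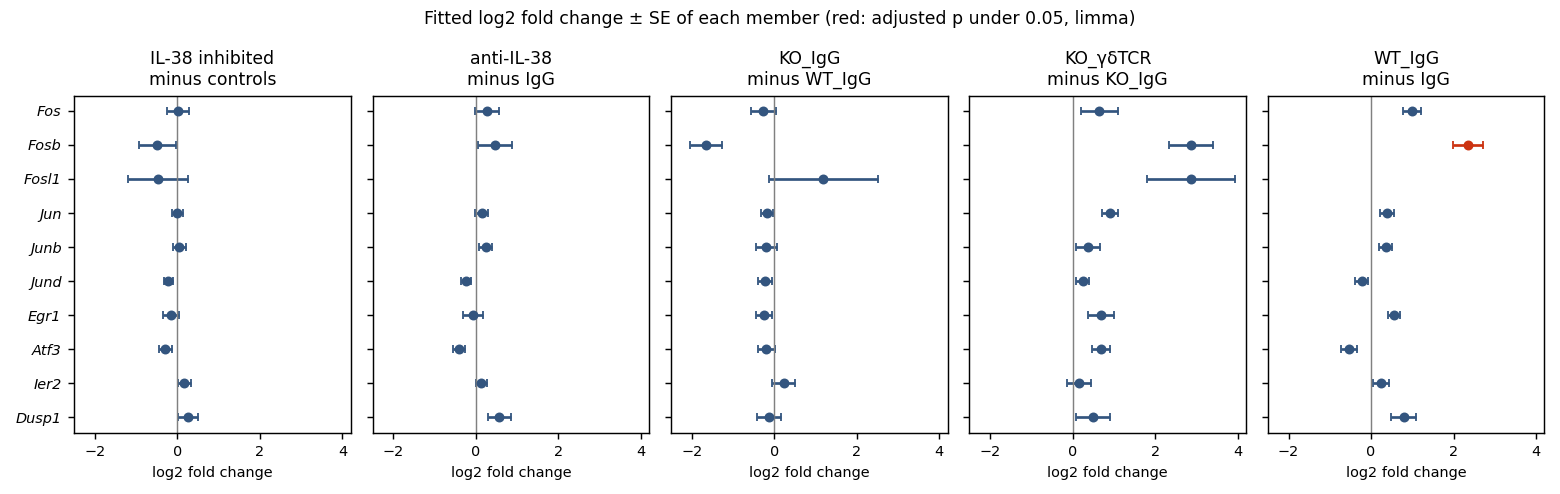
Log2 fold change ± SE (horizontal axis) of each member in the 5 comparisons, from limma, with red for an adjusted p under 0.05 and no point for a member below the filter. Fosb is the only red point, at 2.34 in WT_IgG minus IgG, and all 10 members lie to the right of 0 in KO_γδTCR minus KO_IgG.

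Both experiments held tumors of PyMT WT mice on control IgG, and these control groups were compared with each other. Fosb was higher in WT_IgG than in IgG, at 129 ± 53.2 (SD, n = 4) against 24.0 ± 9.40 normalized counts (SD, n = 5), and it was the only member to pass (log2 fold change 2.34 ± 0.37, SE, adjusted p = 0.0486 with limma). The test called 1 of 9 members and 16 of 16099 genes (0.0994%). Leaving out 1 library at a time, the call was kept without IgG replicate 1 or 4 and lost without each of the other 7 libraries, at adjusted p-values of 0.054 to 0.192. edgeR called Fosb as well (adjusted p = 0.0445), among 11 genes (0.0683%), as did DESeq2 (adjusted p = 3.86e-07).

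Fos averaged 826 ± 224 in WT_IgG and 410 ± 89.8 normalized counts in IgG (SD, n = 4 and 5), which was 1.00 ± 0.22 on the log2 scale (SE, adjusted p = 0.0912). Egr1 averaged 1332 ± 183 and 908 ± 118 (SD, n = 4 and 5), or 0.55 ± 0.14 on that scale (SE, adjusted p = 0.111). Like Fosb, both had every WT_IgG library above every IgG library and an exact permutation p of 0.00794, the smallest for 4 against 5 libraries. Groups without overlap in this direction were thus found for 3 of 9 members and 3.57% of genes. DESeq2 also called Fos (adjusted p = 0.00201) and Egr1 (adjusted p = 0.0174), among 742 genes (4.62%).

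Atf3 had an estimate in the other direction, −0.53 ± 0.19 (SE, adjusted p = 0.183, exact permutation p = 0.0476), and Jund had −0.23 ± 0.15 (SE). On log2 CPM with TMM scaling the exact permutation p of Atf3 was 0.0635. Dusp1 had 0.79 ± 0.30, Jun 0.39 ± 0.16 and Junb 0.35 ± 0.16 (SE), with adjusted p-values of 0.196 to 0.262. At an unadjusted p under 0.05 there were 7 of 9 members, 6 of them higher in WT_IgG, and 2994 genes (18.6%). The median over the members was 0.39, and over all genes tested 0.02.

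Other tissue markers differed between these control groups too. Of the 4 adipocyte markers 2 passed, with a median log2 fold change of 2.82, and their sum was 32.6 to 76.1 CPM in WT_IgG and 3.65 to 12.3 CPM in IgG. Summed basal epithelial markers were at 331 to 718 CPM against 90.8 to 360 CPM, and macrophage markers at 1259 to 1664 against 1506 to 2123 CPM. Fibroblast markers had a median of 0.96, and 0 of 5 passed. Their part in the levels of the members was not tested. The isotype antibody, the start of treatment and the experiment differ together between these groups and cannot be told apart. Each control group also served in a comparison above, so these estimates are not independent of those.

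The wider pathway was read from lists of related genes, some of which stand in more than 1 list. Among 31 other immediate early genes tested, 0 passed on γδTCR blockade with all libraries, where 20 estimates were above 0 and 11 below, with a median of 0.21. Csrnp1, a nuclear factor induced by axin and growth signals, had 2.35 ± 0.65 (SE, adjusted p = 0.0724), and Nr4a3, an orphan nuclear receptor of the early response, had 2.21 ± 0.63 (SE, adjusted p = 0.0763). Like Fosl1, both separated the 5 libraries that stood apart from the 18. Csrnp1 was at 11.9 to 21.8 CPM in KO_γδTCR and 18.1 CPM in KO_IgG replicate 4, against 1.64 to 7.36 CPM in the 18, and Nr4a3 was at 7.96 to 13.7 and 10.3 CPM against 1.11 to 5.67 CPM. Myc had −1.39 ± 0.35 (SE, adjusted p = 0.0657) and Fosl2, which encodes Fra-2, had 0.63 ± 0.20 (SE, adjusted p = 0.0946). Without KO_IgG replicate 4, 5 of the 31 were called higher and 3 lower, and the 4 called members were all higher. Of all 16480 genes in that fit, 1557 were called higher and 800 lower.

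AP-1 partners and targets gave no common direction on blockade. Of 21 bZIP partners, 0 passed and 13 estimates were above 0 (median 0.06), and Jdp2, a repressor that dimerizes with Jun, had 0.97 ± 0.23 (SE, adjusted p = 0.0657). Jdp2 was at 18.6 CPM in KO_IgG replicate 4, inside its KO_γδTCR range of 18.4 to 27.4 CPM. The other KO_IgG libraries had 10.2 to 14.5 CPM of Jdp2. Of 17 AP-1 target genes tested, 0 passed and 10 had estimates below 0 (median −0.16). They ranged from −2.90 ± 0.79 for Mmp13, a collagenase (SE, adjusted p = 0.0699), and −2.66 ± 0.64 for Plaur, the urokinase receptor (SE, adjusted p = 0.0657), to 2.27 ± 0.56 for the cytokine gene Il1b (SE, adjusted p = 0.0657). These 3 genes too separated the 5 libraries that stood apart. In KO_IgG replicate 4 Mmp13 was at 9.28, Plaur at 2.78 and Il1b at 40.1 CPM, each inside the range of KO_γδTCR, while the other KO_IgG libraries had 123 to 170, 13.4 to 18.6 and 4.60 to 13.9 CPM. Without KO_IgG replicate 4, 2 targets were called higher and 4 lower, against 1557 genes higher and 800 lower of 16480.

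Upstream and feedback genes were tested in the same way. Of 23 genes of MAP kinase and serum response factor signaling, 0 passed on blockade (median 0.15), and Map2k7, a kinase that activates JNK, had the smallest p (1.80 ± 0.38, SE, adjusted p = 0.0657). Map2k7 was at 149 to 214 CPM in KO_γδTCR and 129.6 CPM in KO_IgG replicate 4, against 24.2 to 48.5 CPM in the other 18 libraries. Of 16 feedback genes 0 passed (median 0.22), with 0.54 ± 0.17 for the phosphatase gene Dusp8 (SE, adjusted p = 0.0982). Dusp8 was at 23.4 CPM in KO_IgG replicate 4, inside its KO_γδTCR range of 22.5 to 30.7 CPM. The other KO_IgG libraries had 19.6 to 21.1 CPM of Dusp8. Without KO_IgG replicate 4, 2 upstream genes and 1 feedback gene were called higher and none lower. That fit called 1557 of 16480 genes higher and 800 lower. Heat shock genes, which also answer to dissociation, had 0 of 13 passing and a median of 0.07. Among them Dnaja1 had −0.50 ± 0.16 (SE, adjusted p = 0.0977) and Hsph1 0.69 ± 0.26 (SE, adjusted p = 0.151), and 2 of 13 were called higher without KO_IgG replicate 4. Hsph1 was at 114 CPM in that replicate, inside its KO_γδTCR range of 83.9 to 127 CPM. The other KO_IgG libraries had 59.4 to 64.7 CPM of Hsph1.

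Between the control groups, the same lists had medians of 0.03 (other immediate early genes, 0 of 30 passing), 0.07 (bZIP partners, 0 of 21), 0.03 (upstream genes, 0 of 23), 0.29 (feedback genes, 0 of 16), −0.21 (AP-1 targets, 0 of 17) and −0.02 (heat shock genes, 0 of 13). Ccn2, a matricellular early gene, had 1.51 ± 0.52 (SE, adjusted p = 0.174). The feedback gene Zfp36, which encodes a protein that destabilizes early mRNAs, had 0.43 ± 0.15 (SE, adjusted p = 0.178). The chaperonin gene Hspe1 had −0.68 ± 0.14 (SE, adjusted p = 0.0861), in the heat shock list whose median was −0.02.

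**Figure D4:**
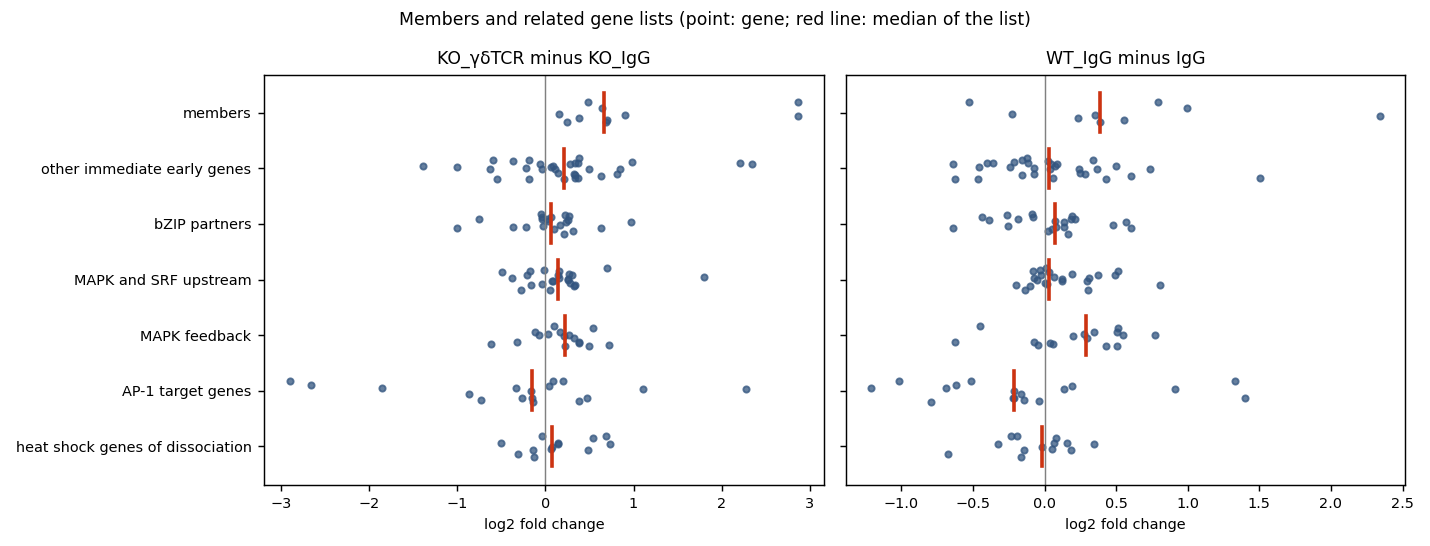
Log2 fold change (horizontal axis) of each tested gene of the members and of the 6 related lists on γδTCR blockade (left) and between the control groups (right), with red lines for list medians. The medians of the members are 0.67 and 0.39, and those of the other lists lie between −0.16 and 0.22 and between −0.21 and 0.29.

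In the comparisons with IL-38 inhibited, 0 genes of the 6 lists passed. Antibody gave Areg, the EGFR ligand amphiregulin and an AP-1 target, 2.78 ± 0.61 (SE, adjusted p = 0.326) and Mapk3, which encodes ERK1, 1.22 ± 0.34 (SE, adjusted p = 0.382). Knockout gave Myc 1.56 ± 0.24 (SE, adjusted p = 0.103), Klf4, a zinc finger early gene, −0.67 ± 0.17 (SE, adjusted p = 0.226) and Ptgs2, which encodes cyclooxygenase 2, 1.78 ± 0.51 (SE, adjusted p = 0.256). With both routes pooled, Ptgs2 had 1.36 ± 0.38 (SE, adjusted p = 0.260) and the median of the 17 AP-1 targets was −0.05.

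Members were also compared with one another across the 23 libraries, after the mean of each group had been removed from log2 CPM. Fos and Fosb went together most closely (Pearson's r = 0.824, permutation p = 0.00012, adjusted p = 0.0054 over 45 pairs, Spearman's rho = 0.796, permutation p = 0.00016). Fos and Egr1 followed (r = 0.776, permutation p = 0.00067, adjusted p = 0.0151, rho = 0.729, permutation p = 0.00158). These were the only pairs of 45 with an adjusted p under 0.05 for r with TMM scaling, and without the 2 libraries farthest from the median of Fos r was 0.733 and 0.676. Over the 19 libraries without KO_γδTCR r was 0.725 and 0.716, and 0 of 45 pairs passed, at an adjusted p of 0.154 for both.

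Among the remaining pairs, Junb and Ier2 had r = 0.668 (permutation p = 0.00528, adjusted p = 0.0566), and passed with CPM scaled by library total (r = 0.705, permutation p = 0.00188, adjusted p = 0.0282). Fos and Dusp1 had r = 0.637 (permutation p = 0.00517, adjusted p = 0.0566) and rho = 0.671 (permutation p = 0.00307, adjusted p = 0.0461). The median r of all 45 pairs was 0.268, and 41 were above 0. Fosl1 had the lowest median r to the other members (0.0754) and Jund the next (0.15), whereas Junb, Egr1 and Fos had medians of 0.397, 0.393 and 0.382. Dusp1 was uneven, with a median of 0.195 but r = 0.637 with Fos and r = 0.596 with Fosb. Jun had its highest r with Fosl1 (0.410) and no pair that passed. Without the 2 libraries farthest from the median of Fosl1, that r was 0.308. Fosl1 had 50 reads in KO_IgG replicate 4 and 0, 5 and 2 in the other KO_IgG libraries. Its r values thus rest on few reads and in part on that library.

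**Figure D5:**
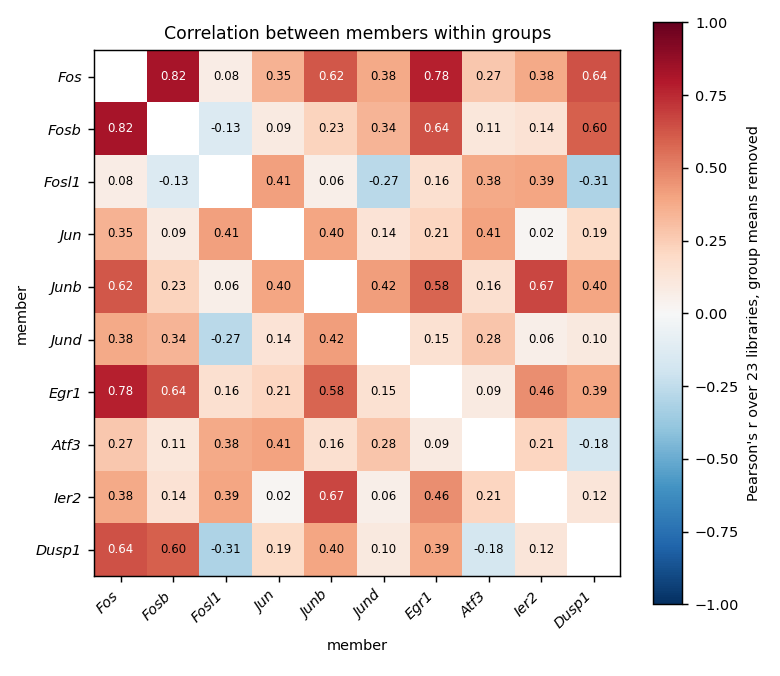
Pearson's r for each pair of members (rows and columns) over 23 libraries with group means removed, from blue (−1) to red (1). Fos, Fosb, Egr1 and Dusp1 hold several of the highest values, up to 0.82, and Fosl1 has values down to −0.31.

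Of 11309 genes with a mean of at least 5 CPM, the 5 whose pattern, with group means removed, was most like the mean z score of the members over the 23 libraries were Zfp36 (r = 0.732), Parp9 (r = 0.703), Uba3 (r = 0.693), Ahcyl2 (r = 0.682) and Faim (r = 0.672). Their Spearman's rho values were 0.669 to 0.732, and r without the 2 most distant libraries was 0.552 to 0.675. They were taken as the highest of all genes and so carry no test.

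Junb overlaps Prdx2 and Dusp1 overlaps Ergic1 on the opposite strand, and the sources used here do not say whether counting used strand. Prdx2 had 1296 to 5989 reads per library and Ergic1 572 to 3271, and their part in the counts of Junb and Dusp1 was not tested. Junos, which overlaps Jun on the other strand, had at most 49 reads.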

How the data were processed

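RNA of PyMT tumors (23 libraries) was sequenced from the 3′ end of mRNA (QuantSeq FWD). The authors processed the reads with the BlueBee pipeline; the submitters' processing notes name STAR, HTSeq, DESeq2 and build GRCm39, without versions. What the authors deposited is a normalized signal, namely counts divided by their size factors, in separate tables of 19 and 8 libraries that share the KO_IgG libraries. Dividing by the value of 1 read gave whole reads for 100% of values within 0.0001%. In WT_IgG replicate 1 the value of 1 read was close to 1. Its deposited values were still not whole numbers, for example 557.7 for the 560 reads of Fos. Depth was 6273049 to 15879164 reads, and a count of 0 is read as at most 3 counts (0.189 to 0.478 CPM). Without molecular identifiers, reads are not independent, and such limits cover counting error only. Names came from GENCODE M21 (GRCm38, 47224 of 47643 identifiers), whose gene coordinates were used only to find genes that overlap the members.

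Genes averaging 5 or more normalized counts were tested on log2(normalized count + 1), a scale that understates changes of low genes, with limma 3.58.1 in R 4.3.3 (trend, two-sided, Benjamini-Hochberg over all genes, threshold 0.05). Only the libraries compared entered a fit, and main tests stayed within a table. edgeR 4.0.16 and DESeq2 1.42.0 on the whole reads, other pseudocounts (0.5 and 5), filters (none and 20), TMM, a replicate block, the experiment as a term, 1 fit of 23 libraries (whole reads, TMM) and leaving out each library were alternatives. Single members had exact permutation tests of mean log2 values, unadjusted. Member pairs used log2 CPM with TMM and 100000 permutations within groups. The labels do not say that replicates were separate animals, so p-values measure the spread between these libraries. Replicates differed beyond counting noise (chi-square per degree of freedom 17.1 to 138). Same-numbered libraries did not deviate together. Fits were tested on simulated data.

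The 10 members, 6 pathway lists and 10 cell type lists were chosen with earlier results of these data known, and no list is independent evidence. Named genes are all members, up to 4 genes per list and comparison with the smallest p, of which a few are printed, and the 5 genes most alike in pattern.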

Additional observations from a re-analysis of the deposited data

Results flagged for a closer look

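Of 50 groups of libraries (10 members in 5 groups), 3 had a library far from the rest by Dixon's ratio, the gap to the nearest library over the range of the group, and chance alone gives about 1 in 20. The ratio was taken on log2 CPM with TMM scaling, while the levels printed below are unscaled CPM. On those CPM the ratio is smaller for all 3. For Jund and Jun it then falls under the cutoffs, 0.71 for 5 libraries and 0.829 for 4. Ier2 in KO_IgG replicate 1 was at 14.2 CPM, with a ratio of 0.914, below the other libraries of the group at 28.8 to 31.0 CPM. Jund in IgG replicate 5 was at 188 CPM, with a ratio of 0.843, where the others had 243 to 266 CPM. Jun in KO_γδTCR replicate 4 was at 208 CPM, with a ratio of 0.831, and the others were at 265 to 285 CPM. For no member did the interaction of antibody and knockout pass the test.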

How the results depend on the processing

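Single members were refitted in 1177 combinations of member, comparison and alternative: 1114 kept direction and side of the threshold, 13 newly passed, 9 no longer passed and 41 changed sign, all of these from estimates within their error. With IL-38 inhibited, the sign changed for Fosl1 with edgeR (0.93) and for Jun with TMM (−0.00037), edgeR (−0.014) and DESeq2 (−0.010). For Egr1 with antibody it changed with edgeR (0.055), DESeq2 (0.055) and the replicate block (0.071). Leaving out 1 library, log2 fold changes ran from −0.11 to 0.14 for Fos, −0.065 to 0.052 for Jun and −0.026 to 0.12 for Junb with IL-38 inhibited, −0.26 to 0.071 for Egr1 with antibody, −0.43 to 0.0097 for Junb and −0.31 to 0.11 for Dusp1 with knockout, and −0.13 to 0.32 for Ier2 on blockade. The interaction ran from −0.071 to 0.15 for Jund, −0.35 to 0.014 for Egr1 and −0.10 to 0.37 for Ier2.

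DESeq2 called 1 member with knockout, 2 on blockade and 3 between the control groups. On blockade, 1 fit of 23 libraries called 4, and leaving out 1 library gave 0 to 4, the 4 without KO_IgG replicate 4. Between the control groups, a pseudocount of 0.5 and no filter each called 0, and leaving out 1 library gave 0 to 1. The cause was not tested. Of member pairs 2 passed, against 0 without KO_γδTCR (19 libraries) and 3 with CPM by library total.

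Same-numbered libraries correlated at −0.169 to 0.0765 in their deviations from group means, so numbers were not taken as pairs. With the replicate block, 0 members were called with IL-38 inhibited, with antibody (where antibody replicate 6 has no partner and drops out), with knockout and on blockade. Fosl1, with at most 9 reads in 18 libraries, could not be fitted under every filter. Depth limits Fosl1 most.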
